A study of Homo sapiens with 4 samples.

Results

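The genes that carry a cell from G2 into mitosis were followed in Kasumi-1, a human line grown from acute myeloid leukemia (AML), after knockdown of ANP32B. The set held 10 genes chosen by name: the cyclins CCNA2, CCNB1 and CCNB2, their kinase CDK1, the phosphatases CDC25A, CDC25B and CDC25C, the inhibitory kinases WEE1 and PKMYT1, and the transcription factor FOXM1. Of these, 9 had a row among the 18567 genes of the table, and CDC25C was not analysed here. RNA sequencing was compared between 2 samples called NC, which the labels describe as untreated with no hairpin while the methods of the study name a control hairpin, and 2 samples called sh-ANP32B, which carried a short hairpin RNA against ANP32B. By the methods, hairpins were delivered by lentivirus and stable cells were selected with puromycin. Which of the designed hairpins was sequenced, the time after infection, and whether replicates were separate cultures were not stated, so the p-values measure the spread between these samples, which may be technical.

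Entry into mitosis is driven by CDK1 bound to a B-type cyclin, with cyclin A2 acting through S phase and G2. WEE1 and PKMYT1 hold the kinase inactive by phosphorylating it, and CDC25 phosphatases remove these phosphates. FOXM1, together with the MuvB complex and MYBL2, drives transcription of many of these genes in G2, so that their mRNA is high in dividing cells and low in resting ones. In bulk RNA, fewer cells in G2 and mitosis cannot be told apart from less RNA in each such cell.

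Values are TPM, which scale reads to transcript length and to the sample total, so levels can be set beside each other between genes. Sequencing depth is unknown from TPM. ANP32B itself had 383.8 and 392 TPM in the NC samples and 51.8 and 41.2 TPM in the sh-ANP32B samples (log2 fold change -3.04, SE 0.150, limma adjusted p 0.00516). Among markers of AML cells, CD33 had 58.5 to 70.1 TPM and RUNX1 121 to 143 TPM over the 4 samples, whereas KIT had only 1.55 to 3.41 TPM. Other markers of that list differed by group. ANPEP had 87.6 and 81.7 TPM in NC, against 124 and 134 in sh-ANP32B, and RUNX1T1, the fusion partner of RUNX1 in this line, had 17.6 and 15.6 TPM, against 31.2 and 26.8. CD38 had 8.19 and 8.26 TPM in NC, against 5.10 and 4.15 in sh-ANP32B. The summed level of the 6 measured genes of the list was 308 and 287 TPM in NC, against 363 and 381 in sh-ANP32B, and the part of these markers in the results was not tested. CD34 and MPO were not analysed here. Among markers listed for T, B, erythroid, epithelial and mature myeloid cells, CD79A had 0 to 2.17 TPM over the 4 samples and ITGAM had 10.4 and 11.7 TPM in NC, against 19.7 and 25.8 in sh-ANP32B. The sh-ANP32B replicates stood apart from each other by base composition: across 15427 genes the difference of replicate 2 from replicate 1 followed the GC content of the transcript with a Spearman rho of 0.577, a description of these libraries, since genes are not independent. Mitochondrial genes held 12.9% and 13.1% of all TPM in NC, against 11.4% and 8.43% in sh-ANP32B, and when they were left out the same 2 of the 9 genes passed the threshold and the median log2 fold change of the 9 was -0.61.

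The upstream sequences of the cyclins, CDK1 and CDC25A are shown because these genes were low together in the sh-ANP32B samples. Their promoters are also known for CCAAT boxes, bound by NF-Y, and for the cell cycle homology region, bound by MuvB. CDC25B was lower too, but its windows are not shown. Whether the matches go with the fall was not tested. Each sequence is the stretch of 170 bases before the RefSeq start (GRCh38.p14), read 5′ to 3′ on the strand of the gene. Capitals mark matches on either strand to CCAAT (written ATTGG on the other strand), TTTGAA and TTTGGCGC (an E2F motif). TTTGAA is a form of the homology region, but a match alone does not mark such a region. The TTTGAA in the CDK1 window shown lies far from the start. None of the marked matches overlap each other.
CCNB1 (chr5:69166980-69167149, plus strand): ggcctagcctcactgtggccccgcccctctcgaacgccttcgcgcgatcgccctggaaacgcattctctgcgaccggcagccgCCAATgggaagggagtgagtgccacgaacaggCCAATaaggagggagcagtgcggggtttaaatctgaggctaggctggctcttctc
CCNB2 (chr15:59104976-59105145, plus strand): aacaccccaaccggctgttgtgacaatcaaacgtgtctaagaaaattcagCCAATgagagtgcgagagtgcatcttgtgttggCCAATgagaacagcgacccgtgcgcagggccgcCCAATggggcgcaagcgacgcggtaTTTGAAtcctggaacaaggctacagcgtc
CCNA2 (chr4:121823884-121824053, minus strand): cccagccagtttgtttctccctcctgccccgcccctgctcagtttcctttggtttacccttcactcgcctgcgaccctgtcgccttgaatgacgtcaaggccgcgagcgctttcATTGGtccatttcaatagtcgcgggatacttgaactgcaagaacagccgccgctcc
CDK1 (chr10:60778161-60778330, plus strand): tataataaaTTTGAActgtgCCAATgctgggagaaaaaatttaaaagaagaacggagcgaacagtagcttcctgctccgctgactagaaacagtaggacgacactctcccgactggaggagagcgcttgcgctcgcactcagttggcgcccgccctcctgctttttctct
CDC25A (chr3:48188418-48188587, minus strand): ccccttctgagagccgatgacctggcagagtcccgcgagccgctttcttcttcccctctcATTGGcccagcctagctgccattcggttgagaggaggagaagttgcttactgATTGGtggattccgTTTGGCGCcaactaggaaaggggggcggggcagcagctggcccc

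CCNB2 held 3 CCAAT matches whose first bases lay 33 bases apart, and CCNB1 held 2 that lay 32 bases apart. CDC25A also held 2, at a distance of 52 bases, and CCNA2 and the CDK1 window shown held 1 each. Over all 35116 windows of this length in the RefSeq table, 25.4% held at least 1 CCAAT, 6.77% at least 2 and 1.62% at least 3. The exact letters TTTGAA were found in CCNB2 and CDK1 and in 8.49% of all windows. A window without them may still hold another form of the homology region. TTTGGCGC was found in CDC25A and in 0.393% of all windows. GTAAACA, a forkhead motif searched in the same way, had no match in these 5 windows and was found in 2.00% of all. For CDK1, whose RefSeq entries give 2 starts, the more upstream is shown. Its TTTGAA lay at -161 and its CCAAT at -150 from that start, far from it. The window of the other start held 2 CCAAT, 32 bases apart at -78 and -46, and 2 TTTGAA, at -69 and -13. Which start is used in these cells was not tested. CDC25B has 4 annotated starts, of which 2 had a single CCAAT and 2 had none. WEE1, PKMYT1 and FOXM1 had no window in the table. These matches describe the letters of the windows, and binding was not measured here.

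Each of the 9 genes measured was lower in both sh-ANP32B samples than in either NC sample, with means between 49.7% and 86.1% of NC. The groups did not overlap in this direction in 9 of 9 genes, against 21.4% of all 16817 genes tested. By limma with Benjamini-Hochberg adjustment over all genes tested, FOXM1 and CDC25A fell at an adjusted p under 0.05, and 0 of the 9 rose. The same threshold was passed downward by 1.18% and upward by 2.14% of all genes, which is 199 lower and 360 higher genes. After median-of-ratios scaling the split was 288 lower and 230 higher. The study ran DESeq2 with cutoffs of p under 0.05 and a log2 fold change over 0.5 in size. It did not state whether that p was adjusted. Here the cutoffs were set on the limma fold change (below -0.5) and unadjusted p (below 0.05), so the calls are not those of the study. In this way 5 of the 9 genes passed (CCNB1, CCNB2, CDK1, CDC25A and FOXM1), against 6.55% of all genes. The median log2 fold change of the 9 genes was -0.56, whereas that of all genes was 0.08.

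**Figure D1:**
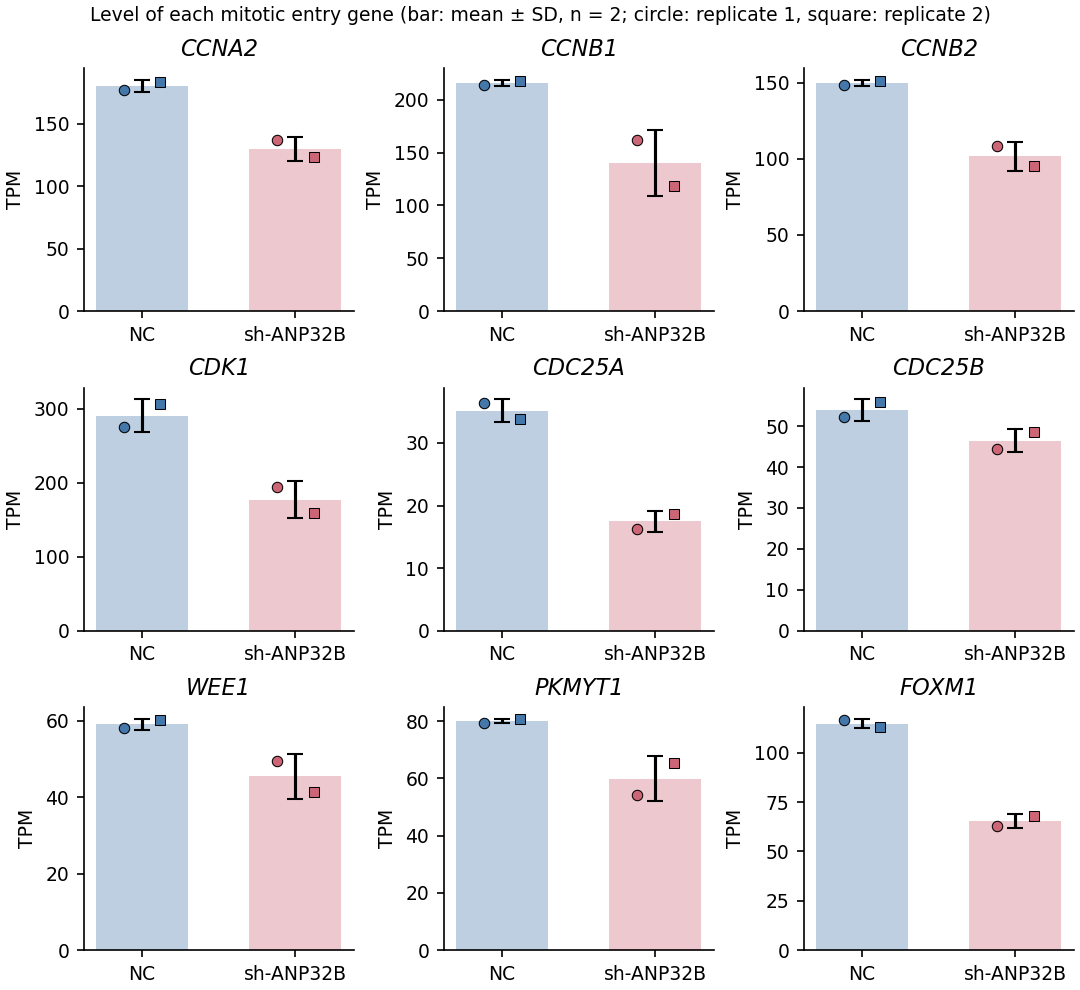
Level in TPM of the 9 genes in each sample, with bars for the mean and error bars for the SD of 2 samples. Both sh-ANP32B points lie below both NC points in all 9 panels, and the mean of CDC25A in sh-ANP32B is 49.7% of that in NC while the mean of CDC25B is 86.1%.

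FOXM1 (ENSG00000111206), the forkhead factor of the G2 transcription program, is at chromosome 12, 2857680 to 2877174, minus strand (all gene positions are on hg38). It had 116 and 113 TPM in NC, against 62.9 and 67.9 in sh-ANP32B. Mean levels were 115 ± 2.43 and 65.4 ± 3.54 TPM (SD, n = 2 each), and the difference was much larger than the spread between replicates. The log2 fold change was -0.80 with an SE of 0.130 (limma adjusted p 0.0399). FOXM1 shares 782 exonic bases with ITFG2 on the opposite strand. The library kit does not mark strand, so reads from this stretch cannot be assigned to 1 of the 2 genes. ITFG2 had 24.9 and 21.6 TPM in NC, against 14.7 and 21.1 in sh-ANP32B, levels well below those of FOXM1.

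The CDC25 phosphatases did not have like values. CDC25A (ENSG00000164045, chromosome 3, 48157146 to 48188417, minus strand), which acts on CDK2 at the start of S phase as well as on CDK1, had 36.4 and 33.8 TPM in NC, against 16.3 and 18.6 in sh-ANP32B. Its log2 fold change of -0.97 was the lowest of the 9 (SE 0.163, limma adjusted p 0.0425). CDC25B (ENSG00000101224, chromosome 20, 3786772 to 3806121, plus strand), regarded as the starter phosphatase at the centrosome, had 52.1 and 55.8 TPM in NC, against 44.4 and 48.4 in sh-ANP32B. The groups did not overlap, but its log2 fold change of -0.21 (SE 0.142) was the smallest in size of the 9 and had a limma adjusted p of 0.413. The ratio of CDC25A to CDC25B within a sample, which does not change when a sample is divided by a single factor, was 0.699 and 0.606 in NC and 0.366 and 0.385 in sh-ANP32B. The 2 groups of ratios were well separated, although an exact permutation test of 2 against 2 samples cannot give a two-sided p under 0.33 and none was run on ratios.

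CDK1 (ENSG00000170312, chromosome 10, 60778331 to 60794852, plus strand), the mitotic kinase, had the highest level of the set. It had 275 and 306 TPM in NC, against 195 and 159 in sh-ANP32B. Mean levels were 291 ± 21.9 and 177 ± 25.2 TPM (SD, n = 2 each). Its log2 fold change was -0.72 with an SE of 0.148 (limma adjusted p 0.0544). CDK1 thus lay just above the threshold of 0.05, and it was under it in 9 of 16 alternative fits.

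CCNB1 (ENSG00000134057, chromosome 5, 69167135 to 69178245, plus strand), the main cyclin of mitotic entry, had 214 and 218 TPM in NC, against 162 and 118 in sh-ANP32B. The NC samples were nearly equal, and the sh-ANP32B samples differed more from each other than those of any other gene of the set on the log2 scale. The log2 fold change was -0.64 with an SE of 0.171 (limma adjusted p 0.0905). It was -0.86 without sh-ANP32B replicate 1 and -0.41 without sh-ANP32B replicate 2.

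CCNB2 (ENSG00000157456, chromosome 15, 59105126 to 59125045, plus strand), the second B-type cyclin, had 149 and 151 TPM in NC, against 108 and 95.0 in sh-ANP32B. Its log2 fold change was -0.56 with an SE of 0.133 (limma adjusted p 0.0714). A processed copy, CCNB2P1, is annotated elsewhere in the genome and was not analysed here.

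CCNA2 (ENSG00000145386, chromosome 4, 121816444 to 121823883, minus strand), cyclin A2, had 177 and 184 TPM in NC, against 137 and 123 in sh-ANP32B. Its log2 fold change was -0.47 with an SE of 0.127 (limma adjusted p 0.0918). CCNA2 shares 254 exonic bases with EXOSC9 on the opposite strand, which had 49.8 and 46.5 TPM in NC, against 46.6 and 32.5 in sh-ANP32B.

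The kinases that restrain CDK1 were also below NC, with smaller log2 fold changes than CDK1, a difference that was not tested. WEE1 (ENSG00000166483, chromosome 11, 9573670 to 9593457, plus strand), the nuclear kinase, had 58.0 and 60.0 TPM in NC, against 49.6 and 41.2 in sh-ANP32B. Its log2 fold change was -0.38 with an SE of 0.153 (limma adjusted p 0.200). PKMYT1 (ENSG00000127564, chromosome 16, 2968024 to 2980479, minus strand), the membrane-bound kinase, had 79.5 and 80.6 TPM in NC, against 54.3 and 65.5 in sh-ANP32B. Its log2 fold change was -0.42 with an SE of 0.148 (limma adjusted p 0.157). Neither passed the threshold. Without sh-ANP32B replicate 1 the log2 fold changes were -0.51 for WEE1 and -0.28 for PKMYT1, and without replicate 2 they were -0.25 and -0.55. PKMYT1 shares 1228 exonic bases with PAQR4 and 357 with KREMEN2, both on the opposite strand. PAQR4 had 56.0 and 53.1 TPM in NC, against 37.1 and 55.7 in sh-ANP32B, levels near those of PKMYT1, so the value of PKMYT1 is uncertain. WEE1 has processed copies, WEE1P1 and WEE1P2, not analysed here.

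**Figure D2:**
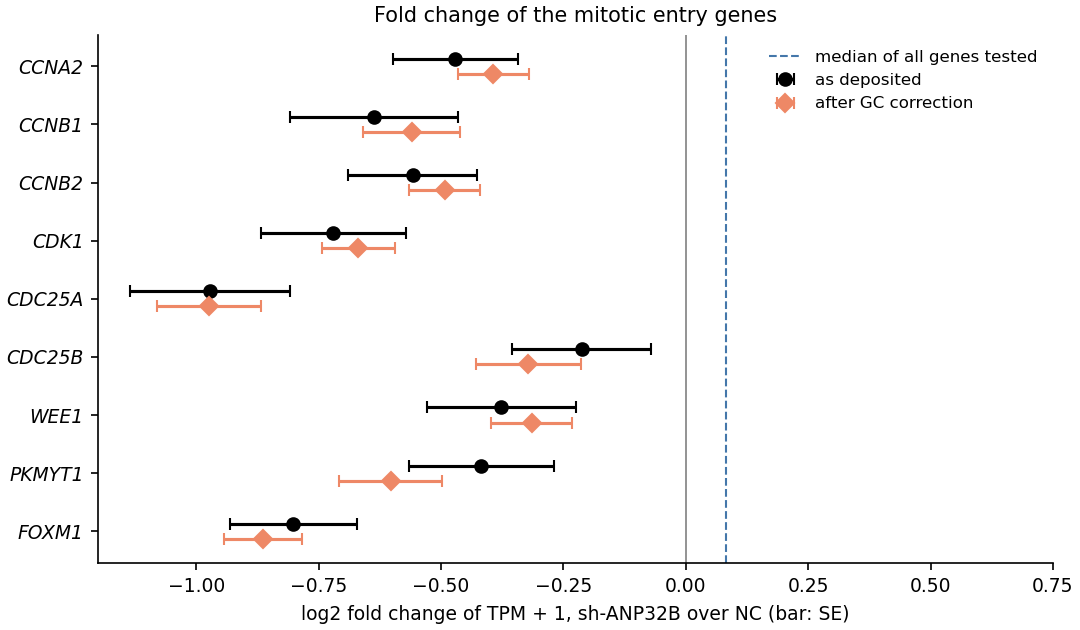
Log2 fold change of TPM + 1 for the 9 genes, sh-ANP32B over NC, with bars for the limma standard error, as deposited and after correction for GC content. The 9 values lie between -0.97 for CDC25A and -0.21 for CDC25B as deposited, all to the left of the median of all genes at 0.08.

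The number of genes past the threshold depended on the fit. The 9 log2 fold changes were negative in all 16 alternative fits, and in the main fit 7076 of all 16817 genes were negative. The number of the 9 past an adjusted p under 0.05 was 7 after GC correction, against 6.65% of the 15427 genes then tested. In limma without the abundance trend it was 0, as for all genes. There 6 of the 9 were lower at an unadjusted p under 0.05, against 1345 of all 16817 genes. The median log2 fold change of the 9 was -0.65 without sh-ANP32B replicate 1 and -0.46 without sh-ANP32B replicate 2. It was -0.57 without NC replicate 1 and -0.55 without NC replicate 2. FOXM1 and CDC25A each passed in 13 of the 16, and the exceptions were the fit without the trend and those lacking an NC replicate. CDC25B did not pass in any of the 16, with an adjusted p between 0.0938 and 0.934, and WEE1 passed in 1.

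The order of levels was also compared. In NC it ran CDK1, CCNB1, CCNA2, CCNB2, FOXM1, PKMYT1, WEE1, CDC25B and CDC25A, from 291 to 35.1 TPM, and the values of no 2 neighbours in this order overlapped. In sh-ANP32B the mean of CDC25B, at 46.4 TPM, stood above that of WEE1, at 45.4 TPM, but the values of these 2 overlapped. The values also overlapped between CDK1 and CCNB1, between CCNB1 and CCNA2, and between FOXM1 and PKMYT1. CDC25A was the lowest of the 9 in every sample.

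Ratios within a sample describe the set internally. They are free of a single scaling factor, but not of a shift that follows GC content, as between the sh-ANP32B replicates. CDC25B and PKMYT1 had GC contents of 59.1% and 66.2%, against 37.9% for WEE1. CCNB1 per CDK1 was 0.778 and 0.712 in NC and 0.833 and 0.745 in sh-ANP32B, and the groups overlapped. CCNB2 per CCNB1 was 0.695 and 0.694 in NC and 0.670 and 0.803 in sh-ANP32B, which also overlapped. PKMYT1 per WEE1 was 1.37 and 1.34 in NC and lay on both sides of that in sh-ANP32B, at 1.10 and 1.59. CDC25B per WEE1, an activator over an inhibitor, was 0.899 and 0.929 in NC and 0.897 and 1.17 in sh-ANP32B. CCNA2 per CCNB1 was 0.827 and 0.843 in NC and 0.844 and 1.04 in sh-ANP32B, so the groups all but touched. Leaving out sh-ANP32B replicate 2 turned the log2 difference of CCNB2 per CCNB1 from 0.08 to -0.05 and that of CDC25B per WEE1 from 0.17 to -0.03, and leaving out sh-ANP32B replicate 1 turned that of PKMYT1 per WEE1 from -0.04 to 0.23. Among the 6 ratios, only CDC25A per CDC25B showed a gap between the groups larger than the spread within both. Summed, the 3 cyclins had 539 and 553 TPM in NC, against 407 and 337 in sh-ANP32B, which is 68.1% of NC by the means, and WEE1 with PKMYT1 had 75.8% of NC.

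**Figure D3:**
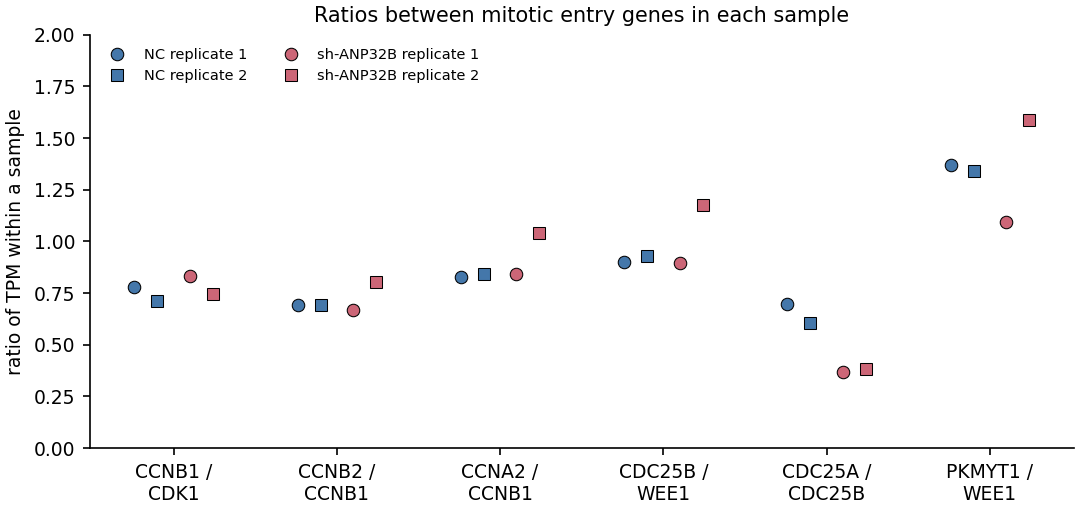
Ratio of the TPM of 2 genes within each sample, for 6 pairs of genes. Only for CDC25A over CDC25B do the NC points, 0.699 and 0.606, lie clearly above the sh-ANP32B points, 0.366 and 0.385, and in the ratios with WEE1 the highest point is sh-ANP32B replicate 2.

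The replicate difference in sh-ANP32B split the set by base composition. The 5 genes whose longest transcript had a GC content of 37.0% to 44.3% (CDK1, WEE1, CCNA2, CCNB1 and CCNB2) were lower in replicate 2 than in replicate 1, by log2 differences of -0.45 to -0.15 with a median of -0.26. The 4 genes at 51.8% to 66.2% (CDC25A, FOXM1, CDC25B and PKMYT1) were higher in replicate 2, by 0.11 to 0.27 with a median of 0.15. All genes tested in the same 2 ranges had medians of -0.27 and 0.25, so the split is shared with the rest of the transcriptome. In NC the medians of all genes in these ranges were 0.07 and -0.04. After GC correction the median log2 fold change was -0.49 for the 5 genes of low GC content, against -0.56 as deposited, and -0.73 for the 4 of high GC content, against -0.61. PKMYT1 moved most, from -0.42 to -0.60, with a limma adjusted p of 0.0170 after correction. What made the replicates differ was not tested.

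**Figure D4:**
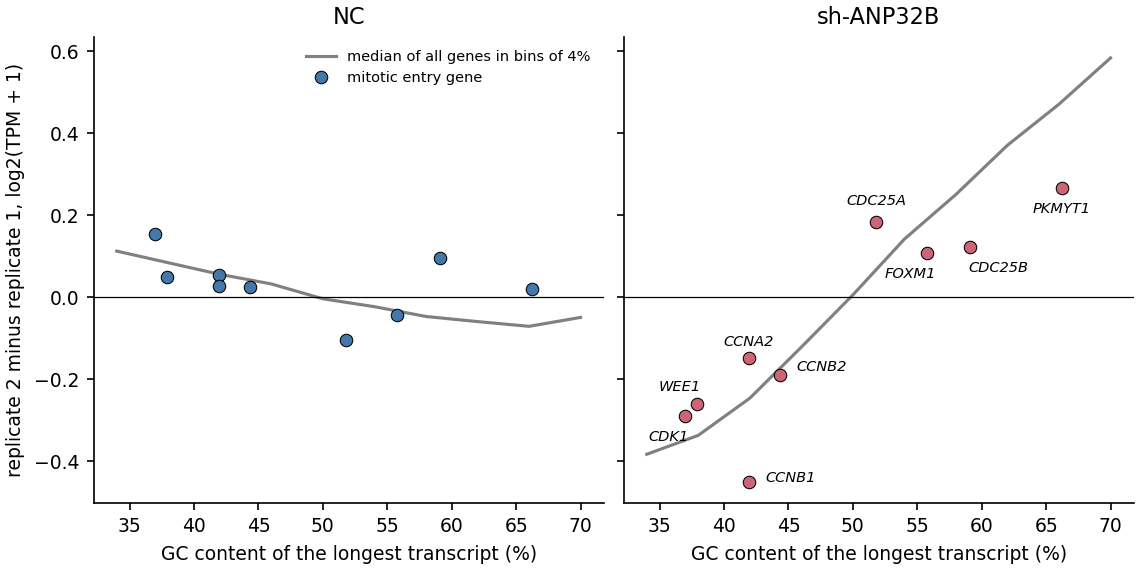
Difference between replicate 2 and replicate 1 in log2(TPM + 1) against the GC content of the longest transcript, for NC and sh-ANP32B, with points for the 9 genes and a line for the median of all genes in bins of 4%. In sh-ANP32B the 5 genes of low GC content lie between -0.45 and -0.15 and the 4 of high GC content between 0.11 and 0.27, on the same side of 0 as the line of all genes, whereas in NC the 9 lie between -0.10 and 0.15.

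Other genes of the same circuit were taken from lists chosen by name, and each list is given by its counts and median beside those of all genes (1.18% lower and 2.14% higher, median 0.08). After GC correction, 6.65% of all genes were lower and 11.3% higher, and at an unadjusted p under 0.05 as deposited the shares were 8.72% and 15.0%. In a list of genes around CDK1 activation, all 10 measured genes had negative values, against 7076 of all 16817 genes. The list is broader than direct partners of the kinase, and it held CCNF, an F-box protein (log2 fold change -0.56, limma adjusted p 0.0809). The median of the 10 genes was -0.36, and 1 passed the test, against 4, CCNF among them, after GC correction. CKS1B, a small subunit that docks on the kinase, fell from 349 and 366 TPM in NC to 239 and 223 TPM in sh-ANP32B (log2 fold change -0.63, SE 0.121, limma adjusted p 0.0482). CDK7, the kinase that activates CDK1, was at the other end of the list, with 19.7 and 15.6 TPM in NC, against 19.9 and 14.1 in sh-ANP32B.

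Greatwall kinase and the PP2A-B55 phosphatase, which opposes CDK1, gave 0 of 9 genes past the threshold in limma, where 2 lower and 0 higher genes had an unadjusted p under 0.05, against 8.72% and 15.0% of all genes. After GC correction 2 were lower, against 6.65% of all genes. Their median was -0.05. The values ran from -0.65 for PPP2R1B, a scaffold subunit (limma adjusted p 0.102), to 0.28 for PPP2CB, a catalytic subunit (limma adjusted p 0.441).

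The checkpoint that acts upstream of CDC25 and WEE1 gave 1 lower and 1 higher gene of 17, against 1.18% and 2.14% of all genes. After GC correction 6 were lower and 3 higher, against 6.65% and 11.3% of all genes. CLSPN, the adaptor through which ATR activates CHEK1, fell from 47.8 and 46.2 TPM to 23.3 and 16.2 TPM (log2 fold change -1.23, SE 0.201, limma adjusted p 0.0406). CDKN1A, the inhibitor p21, rose from 15.4 and 18.3 TPM to 30.8 and 41.5 TPM (log2 fold change 1.05, SE 0.202, limma adjusted p 0.0482). The median of this list was -0.35.

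Of the factors that bind the promoters of such genes, MYBL2, the partner of MuvB in G2, was the 1 gene of 15 that passed. Of all genes, 1.18% passed downward and 2.14% upward. After GC correction 5 of the 15 were lower and 1 was higher, against 6.65% and 11.3% of all genes. MYBL2 fell from 173 and 166 TPM to 89.8 and 101 TPM (log2 fold change -0.83, SE 0.131, limma adjusted p 0.0392), a value close to that of FOXM1. The list of MuvB, DREAM and NF-Y genes had a median of -0.28, and its highest value was 0.41 for E2F5 (limma adjusted p 0.413).

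The machinery that destroys mitotic cyclins and WEE1 had 0 of 23 genes past the threshold in limma, where 6 lower and 2 higher genes had an unadjusted p under 0.05, against 8.72% and 15.0% of all genes. The median was -0.23, and after GC correction 5 were lower and 1 was higher, against 6.65% and 11.3% of all genes. FBXO5, an inhibitor of the anaphase-promoting complex, had 100.2 and 98.2 TPM in NC, against 67.0 and 50.8 in sh-ANP32B (log2 fold change -0.76, limma adjusted p 0.0608). ANAPC2, the cullin subunit of that complex, had the highest value, 0.48, with 70.8 and 72.8 TPM in NC, against 91.7 and 109.8 in sh-ANP32B (limma adjusted p 0.116).

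The 23 genes listed as FOXM1 targets all had negative values, against 7076 of all 16817 genes. Their median was -0.56, equal to that of the 9 mitotic entry genes to 2 decimals. The threshold was passed by 3 of the 23, against 1.18% of all genes, and by 18 of the 23 after GC correction, against 6.65%. SKP2, the F-box protein that targets p27, fell from 85.5 and 89.6 TPM to 46.8 and 48.8 TPM (log2 fold change -0.86, SE 0.133, limma adjusted p 0.0371). BUB1, a kinase of the spindle checkpoint, fell from 119 and 127 TPM to 75.4 and 61.6 TPM (log2 fold change -0.84, SE 0.150, limma adjusted p 0.0440), and CKS1B, which is in this list too, is given above. NEK2, a centrosomal kinase, had the value nearest to 0, -0.19 (limma adjusted p 0.471). No test of the list as a whole was made.

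For the cyclins and kinases of G1 and S phase, the median was -0.61 over 7 tested genes. Of these, CDK4 passed (log2 fold change -0.81, limma adjusted p 0.0426), against 1.18% of all genes lower. After GC correction 4 were lower, against 6.65% of all genes. CCNE1 had the lowest value, -1.35 (SE 0.271, limma adjusted p 0.0514), and CCND2 the highest, 0.03. CCND1 was under the limit of 1 TPM in every sample and was not tested.

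**Figure D5:**
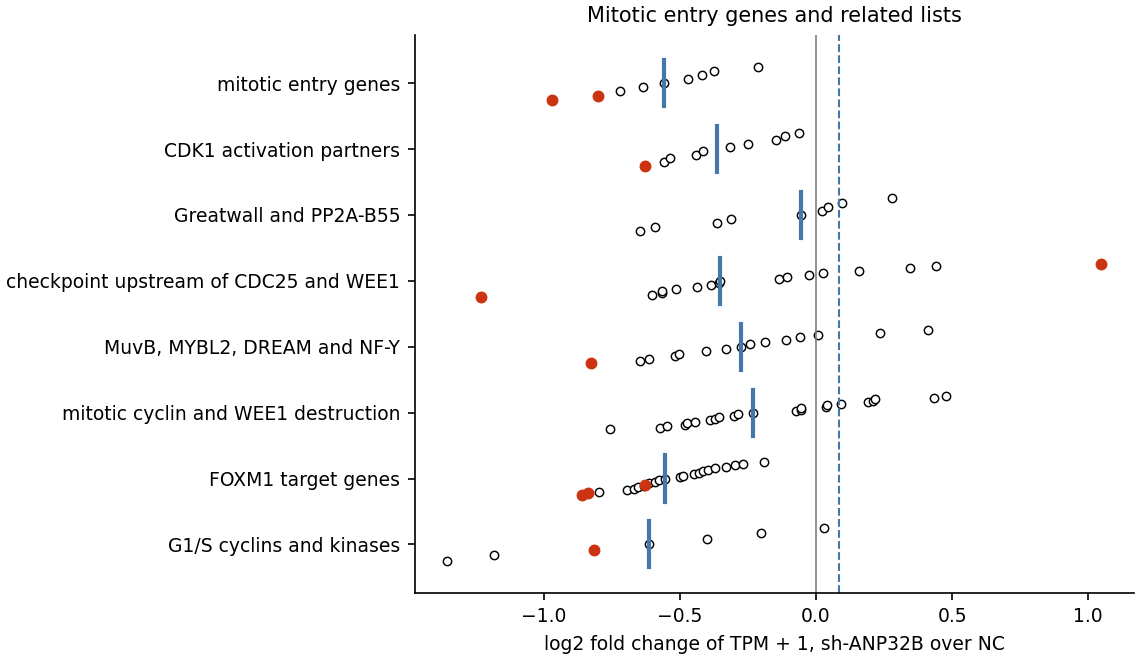
Log2 fold change of TPM + 1, sh-ANP32B over NC, for the 9 mitotic entry genes and 7 lists of related genes, with a thick bar for the median of each list and a dashed line for the median of all genes at 0.08. Filled points have a limma adjusted p under 0.05, and of these only CDKN1A lies to the right of 0.

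Among 9734 other genes with a mean of at least 10 TPM, LRP8, CCT6A, CKLF, MRPL3 and ENSG00000232421 had the profile over the 4 samples that lay nearest to the mean profile of the 9 genes. Their Euclidean distances on the centred log2(TPM + 1) scale were 0.0287 to 0.0382. CCNB2, at 0.0841, lay nearest to the mean among the 9, and CDC25A, at 0.448, farthest. CCT6A, a subunit of a cytosolic chaperonin, had 189.8 and 195 TPM in NC, against 135 and 124 in sh-ANP32B. With 4 samples in 2 groups, many genes share such a profile.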

How the data were processed

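The authors deposited 1 table of TPM for 4 RNA-seq libraries of Kasumi-1 cells, 2 NC and 2 sh-ANP32B. HISAT2 2.0.5 and hg38 are named in the submitters' processing notes, and the labels name a TruSeq kit that does not mark strand. Gene names, positions and GC content came from GENCODE for 16986 of the 18567 identifiers. TPM keep no depth, so the precision of low values is unknown.

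The 16817 genes that reached 1 TPM in 2 or more samples were tested as log2(TPM + 1) with limma 3.58.1 in R 4.3.3, with an abundance trend and Benjamini-Hochberg adjustment over all genes tested. A fold change on this scale understates that of low genes. The procedure was tested on simulated data with independent errors and the same spread in both groups. That test held no shift with GC content, so it does not cover the replicate difference seen in sh-ANP32B. The GC correction used a loess of span 0.3 on the 15427 genes with a GC value. Alternatives covered scaling, pseudocount, filter, gene class, trend, GC, replicate block and each sample left out.

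The genes and lists were chosen with earlier results of these data known. From each list the text names genes past an adjusted p of 0.05 (up to 6) and the highest and lowest fold change. CCNF and MASTL are named outside this rule. The text also names the 5 nearest profiles among genes of at least 10 TPM. Motif matches were sought in RefSeq sequences, of which 7 of the 10 genes had at least 1. Deviations of same-numbered samples correlated with r = -0.0925 over genes, so the numbers were not used as pairs. A marker gene of the lists is not reported here.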

Additional observations from a re-analysis of the deposited data

How the results depend on the processing

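The log2 fold changes of the 9 genes and their median stayed negative in all 16 alternatives. Among the ratios, which were not tested, 3 changed sign when an sh-ANP32B replicate was left out (CCNB2 per CCNB1 from 0.08 to -0.05, CDC25B per WEE1 from 0.17 to -0.03 and PKMYT1 per WEE1 from -0.04 to 0.23 on the log2 scale). Against 2 of the 9 genes and 199 of all genes lower in limma at an adjusted p under 0.05, protein-coding genes only gave 4 and 365, GC correction 7 and 1026, the replicate block 4 and 491, and the replicate block with GC correction 7 and 873. Without the abundance trend the counts were 0 and 0, where 6 and 1345 had an unadjusted p under 0.05. Leaving out 1 sample gave 0 to 7 of the 9 genes and 59 to 1628 of all genes, with 0 of the 9 without NC replicate 1 or without NC replicate 2, and 7 without either sh-ANP32B replicate. The lone sample is then assumed to vary like the other group. The cause of these changes was not tested. The other alternatives gave 2 or 3 of the 9 genes. Replicate numbers are shared only as names. Depth limits could not be set from TPM.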
